A study of Mus musculus with 8 samples.

Results

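The genes described here were the CDK inhibitor and retinoblastoma family genes of the fetal ovary. They were 10 of the 25239 gene symbols with counts in the RNA-Seq libraries and were chosen by name: *Cdkn1a* and *Cdkn1b* of the Cip/Kip family, *Cdkn2a*, *Cdkn2b*, *Cdkn2c* and *Cdkn2d* of the Ink4 family, the cyclin A1-CDK inhibitor gene *Inca1*, and *Rb1*, *Rbl1* and *Rbl2*, which encode the pocket proteins. All 10 were in the files and 9 had enough reads to be tested. *Cdkn2b* did not.

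Whole ovaries of E14.5 female mouse embryos (C57BL/6) were compared between 4 control pools (*Bmpr1a* fl/fl) and 4 *Bmpr1a*-cKO pools (*Bmpr1a* fl/fl; *Oct4*-Cre Cre/WT). Each pool was 1 library and held the ovaries of 2 embryos, and the pools came from 8 embryos of each genotype and 6 litters in all. Both genotypes carried the floxed alleles, and both were exposed, through the dam, to 1 mg of 4-hydroxytamoxifen and 0.5 mg of progesterone on each of 3 days (9.5, 10.5 and then 11.5 dpc). The Cre was tamoxifen-inducible and driven by *Oct4*, so the receptor BMPR1A was to be lost from germ cells, while somatic cells kept the gene. The litter of each pool was not given. The p-values therefore measure the spread between pools, whatever its source. Because the RNA was that of whole ovaries, fewer cells of a type and less RNA per cell cannot be told apart at any gene below.

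CDK inhibitors hold back the kinases that drive cells from G1 into S phase. The Cip/Kip proteins bind CDKs together with their cyclins, the Ink4 proteins bind CDK4 and CDK6, and INCA1 inhibits CDK2. The pocket proteins pRb, p107 and p130 are the substrates downstream: unphosphorylated, they hold E2F transcription factors and keep genes of DNA synthesis off. At this age ovarian germ cells are leaving the mitotic cycle for meiotic prophase, after a last round of DNA synthesis, under the transcription factor STRA8 and its partner MEIOSIN.

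The control libraries held 10622684 to 15365052 counts each, the *Bmpr1a*-cKO libraries 8562961 to 14887102, and a count of 0 allowed levels of up to 0.189 to 0.358 CPM (the floor of 3 counts, counting error only; CPM are counts relative to the scaled library size). The totals were not separated by genotype (exact permutation test, two-sided, p = 0.80). *Bmpr1a* itself was at 199 to 237 CPM in control libraries, against 185 to 209 CPM after deletion, and the groups overlapped (Log2FC −0.16, FDR = 0.0692, edgeR). *Zglp1*, a BMP target gene of germ cells looked at here as a check of the labels, was at 5.24 to 9.37 CPM against 1.78 to 3.34 CPM, and its groups did not overlap. The defining markers of the ovary were present in every library: *Foxl2* of pregranulosa cells had at least 72.9 CPM and *Ddx4* of germ cells at least 106 CPM.

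The clearest difference was at *Inca1*, so its promoter is shown first. *Inca1* lies on the minus strand of chr11:70688361-70700155 (mm10, GENCODE vM21), and no annotated exon of another gene overlaps its exons. The bases in front of its start site, from RefSeq (GRCm38.p6), are given 5′ to 3′ on the strand of the gene, with matches to the STRA8-MEIOSIN motif, CNCCTCAG on either strand, in capitals.
Inca1, chr11:70700156-70700405, minus strand: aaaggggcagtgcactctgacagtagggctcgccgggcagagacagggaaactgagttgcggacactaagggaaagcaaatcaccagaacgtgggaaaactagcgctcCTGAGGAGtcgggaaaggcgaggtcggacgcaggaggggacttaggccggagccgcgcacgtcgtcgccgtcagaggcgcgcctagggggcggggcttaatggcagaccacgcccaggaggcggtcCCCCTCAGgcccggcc
The matches begin 142 and 16 bases before the start site. Of all 32851 mouse promoter windows of this table, 7.94% held the motif. Among the genes described here it was found in 3 of the 9 with a window, the others being *Cdkn1a* and *Cdkn2b*. A match is a description of these letters and not a bound site.

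*Inca1* was the gene of the 10 that differed most. Its level in control pools 1 to 4 was 11.7, 7.97, 11.5 and 16.2 CPM, from 142, 90, 123 and 256 reads. In *Bmpr1a*-cKO pools 1 to 4 it was 1.31, 2.60, 3.56 and 5.19 CPM, from 11, 35, 34 and 76 reads. Every *Bmpr1a*-cKO pool was thus below every control pool. The means were 11.8 ± 3.35 and 3.16 ± 1.63 CPM (SD, n = 4), and *Inca1* was 3.59-fold lower in *Bmpr1a*-cKO ovaries (Log2FC −1.85, 95% interval −2.43 to −1.26, FDR = 0.000139, edgeR). The pools also varied among themselves, with a CV of 28.3% in control and 51.6% in *Bmpr1a*-cKO ovaries.

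*Inca1* was also set against *Ddx4*, which encodes the germ cell helicase MVH, within each library. *Ddx4* had 128, 151, 168 and 121 CPM in the control pools and 106, 167, 159 and 179 CPM in the *Bmpr1a*-cKO pools, and its groups overlapped. As a percentage of the *Ddx4* count, *Inca1* stood at 9.13, 5.27, 6.84 and 13.4 in control and at 1.24, 1.56, 2.23 and 2.89 in *Bmpr1a*-cKO pools. These ratios need no scaling between libraries, and the groups were again separate. With libraries scaled to equal *Ddx4*, the Log2FC of *Inca1* was −2.08 (FDR = 4.28e-12). *Inca1* kept an FDR below 0.05 in all 17 alternative fits that gave it one, with Log2FC from −2.35 to −1.64.

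Over the 8 libraries, the tested genes whose mean-centred log2 CPM was most like that of *Inca1* were *Tppp*, *H2-Ab1* and *Terb1*, with root mean square differences of 0.163, 0.191 and 0.198 on the log2 scale. *Tppp* encodes a tubulin-binding protein, *H2-Ab1* an MHC class II chain, and *Terb1* a protein that ties meiotic telomeres to the nuclear envelope. Their Log2FC were −2.07, −2.11 and −1.96.

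**Figure D1:**
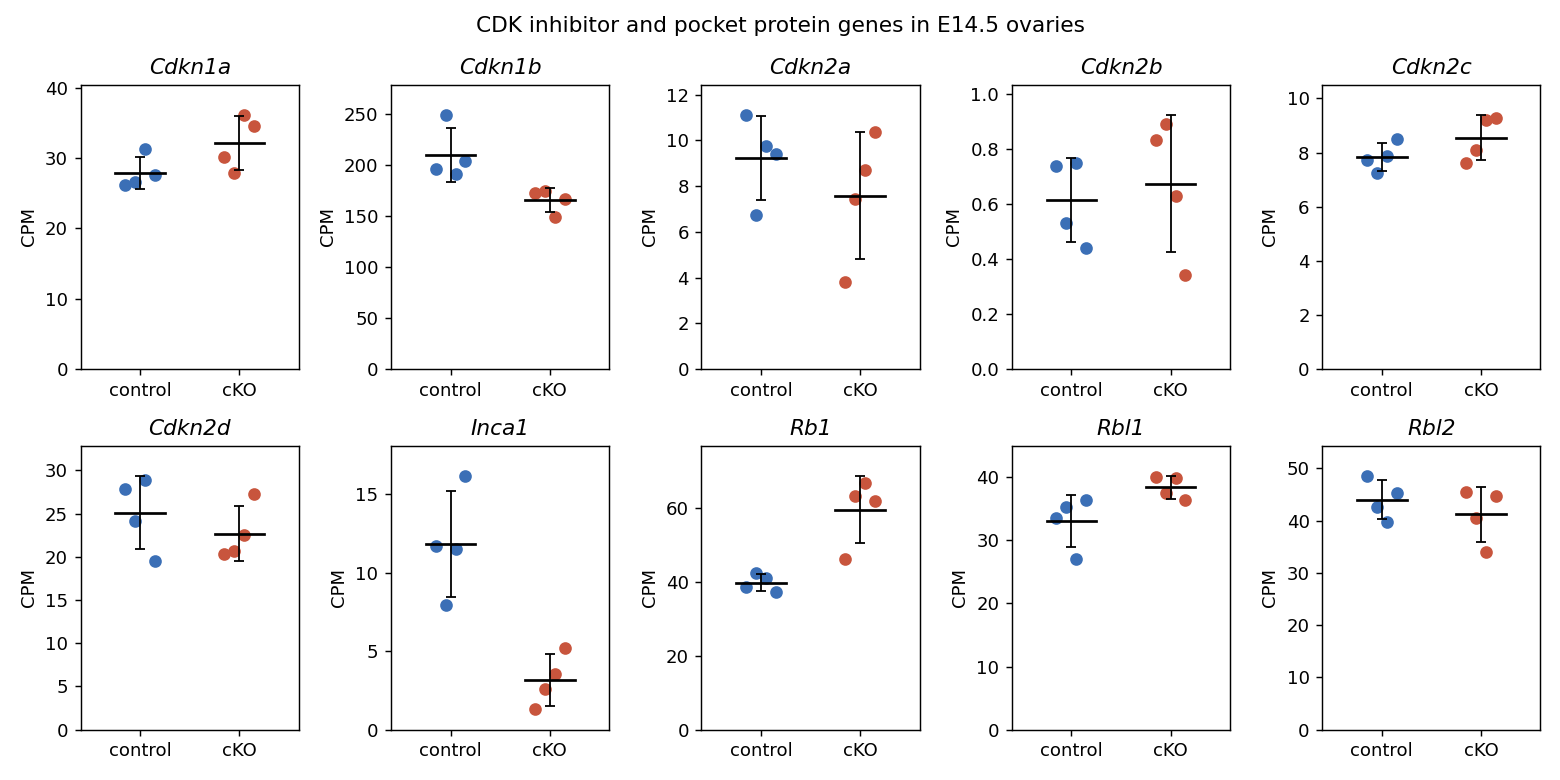
CPM of each of the 10 genes in the 4 control (blue) and 4 *Bmpr1a*-cKO (red) libraries, replicates 1 to 4 from left to right, with the mean as a bar and the SD as error bars; each panel has its own axis from 0. The groups are apart for *Inca1*, *Rb1* and *Cdkn1b* and overlap for the other 7 genes.

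At the pocket protein genes, *Rb1* was higher in *Bmpr1a*-cKO ovaries and its relatives were not DEGs. *Rb1*, on the minus strand of chr14:73183673-73325822, encodes pRb, which binds the activating E2Fs. Control pools 1 to 4 had 38.6, 42.2, 40.9 and 37.1 CPM of *Rb1*, and *Bmpr1a*-cKO pools had 46.1, 63.3, 66.6 and 61.8 CPM. All *Bmpr1a*-cKO pools lay above all control pools, although pool 1 stood nearer to the controls than to its own group. The means were 39.7 ± 2.31 and 59.5 ± 9.10 CPM (SD, n = 4), a 1.51-fold difference (Log2FC 0.59, 95% interval 0.38 to 0.80, FDR = 0.000322, edgeR).

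The call at *Rb1* depended on what the libraries were scaled to. Scaled to the mean log2 CPM of the germ cell markers, its Log2FC was 0.17 (FDR = 0.477), and scaled to *Ddx4* alone it was 0.48 (FDR = 0.332). Germ cell marker scaling moved the median of all genes to −0.41 and *Ddx4* scaling to −0.087. Relative to those medians *Rb1* was at 0.57 and 0.56. The shift is common to all genes of a library. Where the sign of a gene below turns with germ cell marker scaling, its place among all genes thus need not change. The median of the 9 genes relative to all genes was −0.092 with TMM, −0.094 with germ cell marker and −0.086 with *Ddx4* scaling. Values relative to all genes stay nearly the same by construction, so their agreement between scalings is no check of a call here or below. Exons of *Rb1* overlap those of *Rcbtb2* and *Lpar6* on the opposite strand by 488 and 408 bases. Neither of them passed the test, with Log2FC of 0.10 (FDR = 0.268) and −0.092 (FDR = 0.547).

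*Rbl1*, on chr2:157145893-157204534, encodes p107, a pocket protein of dividing cells that binds repressive E2Fs. It had 27.1 to 36.3 CPM in control and 36.3 to 39.9 CPM in *Bmpr1a*-cKO ovaries, and the groups overlapped by a narrow margin. The difference did not pass the test after adjustment (Log2FC 0.21, 95% interval 0.020 to 0.39, FDR = 0.0897), and it was 0.12 without control pool 3 (FDR = 0.263). Scaled to the germ cell markers it turned to −0.20, which was 0.20 relative to all genes. The bases before its start site carry an E2F motif, shown in capitals.
Rbl1, chr2:157204535-157204594, minus strand: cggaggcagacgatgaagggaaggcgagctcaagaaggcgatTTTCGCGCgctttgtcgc
The letters searched were TTTCGCGC, TTTCCCGC, TTTGGCGC and TTTGCCGC on either strand. They were found in 2.26% of all promoter windows and in those of *Rbl1* (18 bases before the start) and *Cdkn2a* (99 bases before).

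*Rbl2*, which encodes p130, the pocket protein of resting cells, had 39.8 to 48.5 CPM in control and 34.0 to 45.4 CPM in *Bmpr1a*-cKO ovaries. The groups overlapped widely (Log2FC −0.096, 95% interval −0.29 to 0.099, FDR = 0.468), and the Log2FC was −0.018 without *Bmpr1a*-cKO pool 3. With germ cell marker scaling it was −0.50 and passed (FDR = 0.0455), but relative to all genes it was −0.094. Its exons overlap by 693 bases those of *Aktip* on the opposite strand, whose Log2FC was 0.088 (FDR = 0.379). They also overlap by 892 bases those of *Gm45464* on the opposite strand, which was not among the genes counted.

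Set against each other by length, the pocket protein genes took nearly equal shares in control ovaries. In CPM per kilobase of exon (RPKM, from GENCODE vM21 exon lengths), *Rb1* made up 36.9% of their sum in control (33.9 to 41.0%) and 45.3% in *Bmpr1a*-cKO pools (37.7 to 49.8%). *Rbl2* made up 32.4% (30.3 to 34.9%) and 25.2% (20.3 to 29.5%). The shares of *Rbl2* were thus separate between genotypes by a narrow margin, whereas those of *Rb1* overlapped. A share also falls when another gene of the sum rises, and the level of *Rbl2* itself did not pass the test (FDR = 0.468). *Rbl1* kept a mean share of 30.7% and 29.5%. The sum of the 3 genes was 16.6 to 18.5 RPKM in control and 20.3 to 22.3 RPKM in *Bmpr1a*-cKO ovaries.

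The genes with the profile most like that of *Rb1* over the 8 libraries were *Cox7b*, *Plekha1* and *Sdc4*, with root mean square differences of 0.0535, 0.0654 and 0.0660 on the log2 scale. *Cox7b* encodes a subunit of cytochrome c oxidase, *Plekha1* a phosphoinositide-binding adaptor and *Sdc4* the proteoglycan syndecan 4. Their Log2FC were 0.56, 0.49 and 0.58.

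Of the Cip/Kip genes described here, *Cdkn1b* was lower in *Bmpr1a*-cKO ovaries. *Cdkn1b*, on chr6:134920401-134925513, encodes p27KIP1, which inhibits cyclin E-CDK2 and is removed in cycling cells by ubiquitination. Control pools 1 to 4 had 196, 249, 191 and 204 CPM and *Bmpr1a*-cKO pools had 173, 175, 149 and 167 CPM. No *Bmpr1a*-cKO pool reached the lowest control pool. *Cdkn1b* was 1.26-fold lower (209.8 ± 26.4 against 166 ± 11.6 CPM, SD, n = 4, Log2FC −0.34, 95% interval −0.51 to −0.165, FDR = 0.00558, edgeR), short of the Log2FC of 0.5 that a DEG needed. With *Ddx4* scaling its Log2FC was −0.40 and did not pass the test (FDR = 0.507), and with germ cell marker scaling it was −0.73 (FDR = 0.00437).

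*Cdkn1a*, on chr17:29090976-29100727, encodes p21CIP1, the CDK inhibitor induced by p53. It had 26.1 to 31.3 CPM in control and 27.9 to 36.1 CPM in *Bmpr1a*-cKO ovaries, and the groups overlapped. The difference did not pass after adjustment (Log2FC 0.21, 95% interval 0.012 to 0.41, FDR = 0.105, edgeR). Without *Bmpr1a*-cKO pool 2 it did (FDR = 0.0479), and with germ cell marker scaling it turned to −0.19. Exons of *Cdkn1a* overlap by 273 bases those of a gene on the opposite strand that was not among those counted. A p53 motif, CATG, any 6 bases and CATG, lies 48 bases before the first start site of *Cdkn1a* and is in capitals.
Cdkn1a, chr17:29090908-29090967, plus strand: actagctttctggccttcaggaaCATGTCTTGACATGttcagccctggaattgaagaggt
It was found in 0.712% of all promoter windows and in no other gene of the 10 with a window. The motif GGCGCC, which SMAD proteins of the BMP pathway bind, shares 5 letters with the E2F motif TTTGGCGC; it was in 11.9% of all windows and in those of *Cdkn1b*, *Cdkn2a*, *Cdkn2c* and *Cdkn2d*.

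None of the Ink4 genes passed the test. *Cdkn2a*, on chr4:89274471-89294653, encodes p16INK4a and, from another reading frame, p19ARF, and its counts cannot separate the transcripts of these proteins. Control pools had 11.1, 6.73, 9.74 and 9.40 CPM and *Bmpr1a*-cKO pools 3.82, 7.44, 8.69 and 10.4 CPM. Pool 1 of the *Bmpr1a*-cKO ovaries was lowest of all 8, and the other 3 lay within the control range. The Log2FC was −0.25 (95% interval −0.71 to 0.21, FDR = 0.42, edgeR). It was −0.064 without *Bmpr1a*-cKO pool 1 and −0.46 without pool 4, and neither passed. With germ cell marker scaling it was −0.73 (FDR = 0.0138).

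Within the *Bmpr1a*-cKO pools, *Cdkn2a* and *Inca1* followed the same order, lowest in pool 1 and highest in pool 4. *Ddx4* was also lowest in pool 1 and highest in pool 4. The control pools did not follow this: *Inca1* was highest in control pool 4, at 16.2 CPM, where *Ddx4* was lowest of the controls, at 121 CPM. As a percentage of the *Ddx4* count, *Cdkn2a* stood at 8.68, 4.45, 5.79 and 7.80 in control and at 3.60, 4.45, 5.45 and 5.79 in *Bmpr1a*-cKO pools, which overlapped.

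**Figure D2:**
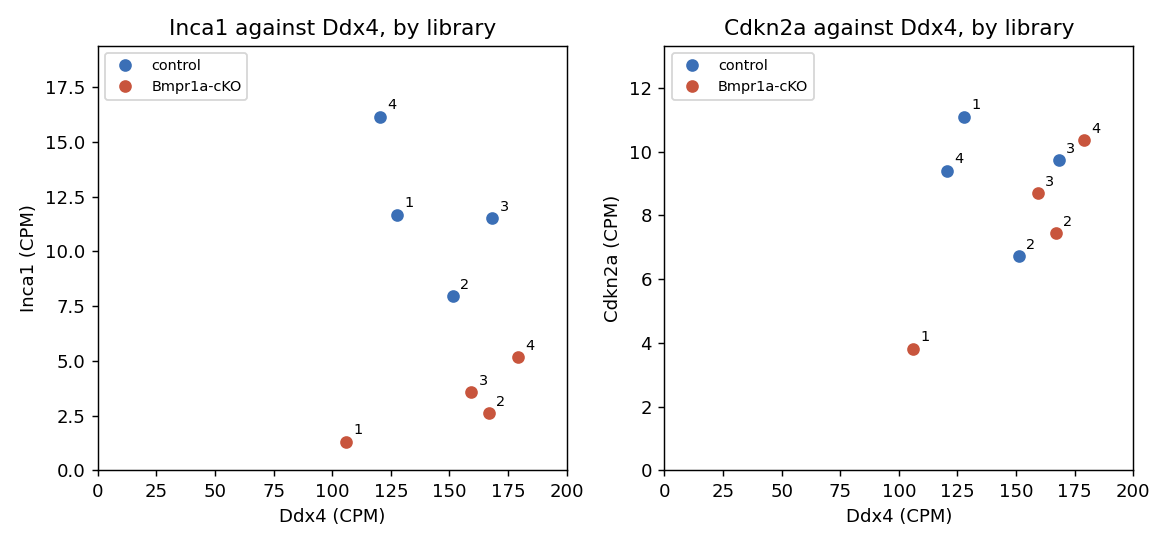
CPM of *Inca1* (left) and *Cdkn2a* (right) against CPM of *Ddx4* in each library, control in blue and *Bmpr1a*-cKO in red, with replicate numbers beside the points. The *Inca1* points of the *Bmpr1a*-cKO libraries, 1.31 to 5.19 CPM, lie below all controls at a like range of *Ddx4*, and those of *Cdkn2a* lie among the controls except for pool 1.

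*Cdkn2d*, which encodes p19INK4d, had 19.6 to 28.9 CPM in control and 20.3 to 27.2 CPM in *Bmpr1a*-cKO ovaries, with wide overlap (Log2FC −0.13, 95% interval −0.39 to 0.13, FDR = 0.472). *Cdkn2c*, which encodes p18INK4c, had 7.26 to 8.52 and 7.63 to 9.28 CPM, and overlapped too (Log2FC 0.13, 95% interval −0.13 to 0.38, FDR = 0.466). With germ cell marker scaling *Cdkn2c* turned to −0.30 (FDR = 0.282) and *Cdkn2d* was at −0.54 (FDR = 0.0372).

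*Cdkn2b*, the neighbour of *Cdkn2a* that encodes p15INK4b, was close to the detection limit. It had 9, 6, 8 and 7 reads in the control pools and 7, 12, 6 and 5 reads in the *Bmpr1a*-cKO pools, or 0.44 to 0.75 CPM and 0.34 to 0.89 CPM. At this depth no difference was detectable: in a fit without the filter on low counts its Log2FC was 0.11, with a 95% interval from −0.74 to 0.95.

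**Figure D3:**
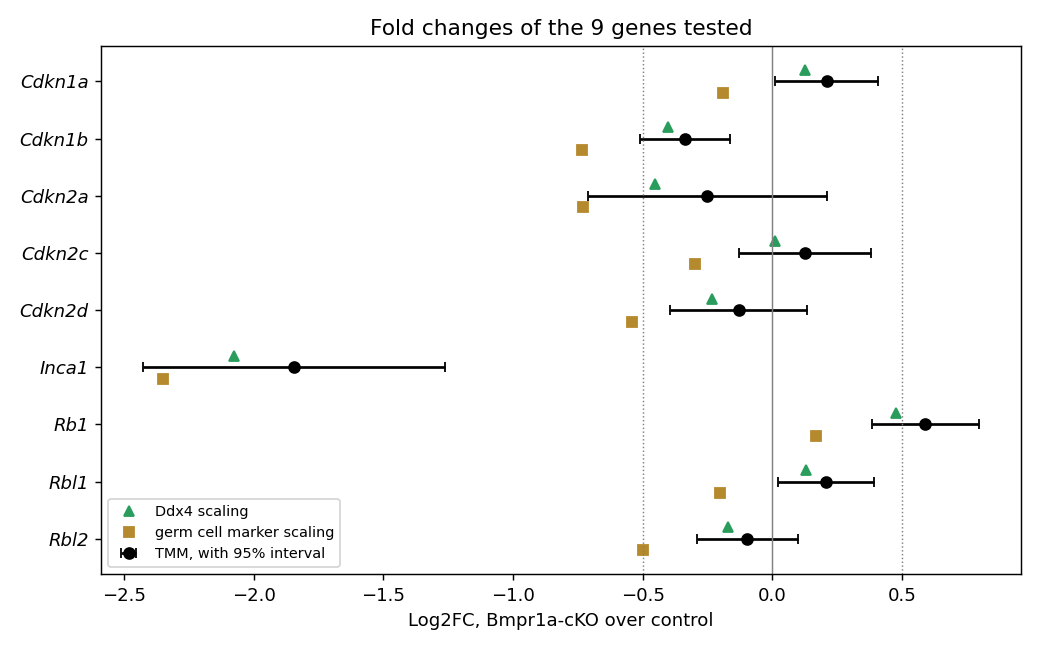
Log2FC (*Bmpr1a*-cKO over control) of the 9 genes tested: TMM scaling with its 95% interval (black circles), *Ddx4* scaling (green triangles) and germ cell marker scaling (brown squares), with dotted lines at −0.5 and 0.5. *Inca1* lies below −1.26 over its whole interval, *Rb1* is above 0 on all 3 scales, and *Cdkn1a*, *Cdkn2c* and *Rbl1* fall below 0 with germ cell marker scaling.

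In all, 2 of the 9 genes tested were DEGs, *Inca1* among those lower and *Rb1* among those higher. A DEG had an absolute Log2FC above 0.5 and an FDR below 0.05, and 10.2% of the 14249 genes tested passed both, 6.11% higher and 4.06% lower in *Bmpr1a*-cKO ovaries. By FDR alone, 3 of the 9 passed, 1 higher and 2 lower, where 29.8% of all genes did, 17.3% higher and 12.5% lower. The groups did not overlap for 3 of the 9, against 27.9% of all genes tested. So by FDR or by overlap, the share of these genes was near that of all genes. Their Log2FC had a median of −0.096, and that of all genes was −0.0042.

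Per exon length, *Cdkn1b* was the most abundant of the 10 in both genotypes, at 46.1 RPKM in control and 36.4 RPKM in *Bmpr1a*-cKO ovaries. *Cdkn2d* came next, at 16.0 and 14.4 RPKM. In control ovaries *Inca1* was 3rd of 10 with 8.59 RPKM, followed by *Cdkn2a* with 7.89, *Cdkn1a* with 7.85, *Rb1* with 6.60, *Rbl2* with 5.82 and *Rbl1* with 5.52 RPKM. *Inca1* and *Cdkn2a*, *Cdkn2a* and *Cdkn1a*, *Rb1* and *Rbl2*, and *Rbl2* and *Rbl1* were neighbours in this order whose ranges overlapped. *Cdkn2c* with 2.92 and *Cdkn2b* with 0.443 RPKM were lowest.

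In *Bmpr1a*-cKO ovaries *Inca1* was 9th of 10 with 2.30 RPKM, between *Cdkn2c* with 3.19, whose range it overlapped, and *Cdkn2b* with 0.485 RPKM. *Rb1* was 3rd with 9.88 RPKM, overlapping *Cdkn1a* with 9.06 RPKM. *Cdkn2a* with 6.47, *Rbl1* with 6.40 and *Rbl2* with 5.45 RPKM followed. The largest share of each inhibitor class, among the genes described here, was held by the same gene in both genotypes. *Cdkn1b* made up 85.3% and 80.0% of the summed RPKM of *Cdkn1a* and *Cdkn1b*. Any other Cip/Kip gene was not in this sum. *Cdkn2d* made up 58.5% and 59.1% of Ink4 RPKM.

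**Figure D4:**
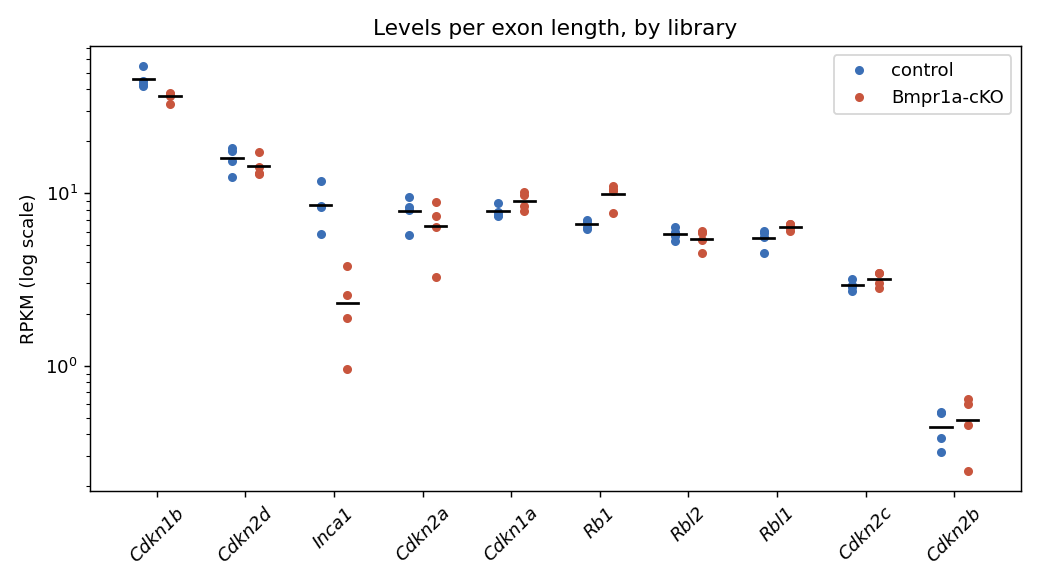
RPKM on a log axis for each gene in each library, control in blue and *Bmpr1a*-cKO in red, ordered by the control mean; black bars are means of 4 libraries. *Cdkn1b* is highest at 46.1 and 36.4 RPKM and *Cdkn2b* lowest at 0.443 and 0.485 RPKM, and *Inca1* moves from 8.59 to 2.30 RPKM.

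The partners of these genes were counted from lists of their pathways, each against the 29.8% of all genes that had an FDR below 0.05. Of the CDKs and G1/S cyclins, 10 of 11 were tested, 3 rose, 2 fell and the median Log2FC was 0.0066. *Cdk1*, the mitotic kinase, went from 47.7 ± 2.04 to 74.9 ± 5.11 CPM (Log2FC 0.65, FDR = 5.24e-06), and *Ccna2*, the S and G2 phase cyclin, from 109 to 169 CPM (Log2FC 0.63). *Ccnd1*, a cyclin that activates CDK4 and CDK6, fell from 81.7 to 46.5 CPM (Log2FC −0.81, FDR = 4.29e-06) and *Ccne2*, a cyclin of CDK2, from 44.0 to 27.8 CPM (Log2FC −0.65). *Ccnd1* and *Ccne2* also passed with both germ cell scalings. *Cdk1* and *Ccna2* passed with neither, though with *Ddx4* scaling their Log2FC were both 0.56. The kinases that the inhibitors bind were looked at after the values were seen. *Cdk4*, a target of the Ink4 proteins, rose from 263 to 354 CPM (Log2FC 0.43, FDR = 3.33e-05), while *Cdk6*, the other, had a Log2FC of −0.088 and *Cdk2*, the kinase inhibited by INCA1, one of 0.039, and neither passed.

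Of the 10 E2F and DP factor genes, 6 rose and 1 fell, with a median Log2FC of 0.26. *E2f8*, an atypical repressive E2F, went from 21.9 to 40.9 CPM (Log2FC 0.90, FDR = 6.22e-07), and *E2f7*, its relative, from 16.5 to 23.6 CPM (Log2FC 0.52). Of 22 E2F target genes of DNA synthesis, 14 rose and 1 fell, with a median of 0.24. *Mcm10* and *Mcm2*, which encode parts of the replication machinery, were highest in change at Log2FC 0.70 and 0.56, and *Orc1*, of the origin recognition complex, fell by 0.51 on the log2 scale. Calls and signs depended on the scale. With germ cell marker scaling the medians of both lists were −0.15 and −0.16, no gene of either rose and 2 and 1 fell, but relative to all genes the medians were 0.25 and 0.25. With *Ddx4* scaling the medians stayed positive, at 0.16 and 0.16, and 1 E2F gene and no target gene passed, in a fit in which 726 genes passed in all. *Mcm10* and *Mcm2* then had Log2FC of 0.62 and 0.50.

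The next list held the MuvB complex, through which p107 and p130 repress cell cycle genes, and its other partners B-Myb (*Mybl2*) and FoxM1 (*Foxm1*). In this list 1 of 7 rose and none fell (median 0.087). That gene was *Mybl2*, named here for this count alone (Log2FC 0.32, FDR = 0.0219), and it did not pass without control pool 2 or 4 or without *Bmpr1a*-cKO pool 2 or 3. Of 8 genes for corepressors that bind pRb, 3 rose and 1 fell (median 0.10), but 1 and 1 with library size scaling. *Arid4a*, an Rb-binding protein gene, went from 33.0 to 70.9 CPM (Log2FC 1.10, FDR = 5.56e-08) and rose with both germ cell scalings. *Kdm5a*, an Rb-binding histone demethylase gene, went from 371 to 259 CPM (Log2FC −0.52, FDR = 3.73e-05). It also passed with germ cell marker scaling (Log2FC −0.93, FDR = 0.000206) but not with *Ddx4* scaling (Log2FC −0.61, FDR = 0.118).

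The list of the ubiquitin ligase that removes p27KIP1, its cofactors and a related F-box gene included 4 of 7 that rose and 1 that fell (median 0.33). The one that fell was *Fbxw7* (Log2FC −0.32, FDR = 0.00492), whose product is the F-box subunit of another ligase of the same kind, which acts on cyclin E. *Cks2*, which encodes a CDK-binding protein, went from 22.6 to 40.5 CPM (Log2FC 0.86, FDR = 0.000689). *Skp2*, the F-box subunit that recognises p27KIP1, was looked at after the values were seen. It rose from 48.2 ± 2.88 to 63.2 ± 2.57 CPM (SD, n = 4, Log2FC 0.39, FDR = 0.000408), while *Cdkn1b* was lower. The ratio of *Cdkn1b* to *Skp2* counts, free of scaling, was 4.04 to 4.84 in control pools, against 2.37 to 2.88 where *Bmpr1a* was deleted, and these did not overlap. Both genes entered this ratio because of their change, so it is a description. The Log2FC of *Skp2* with germ cell marker scaling was −0.023 (FDR = 0.924), or 0.38 relative to all genes.

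Of 16 p53 target genes, the set to which *Cdkn1a* belongs by its regulation, 15 were tested, 6 rose and none fell (median 0.11). *Bax*, a pro-apoptotic gene, went from 25.1 to 43.4 CPM (Log2FC 0.80, FDR = 2.03e-05). Germ cell marker scaling gave a median of −0.30, no gene rose and 2 fell, and relative to all genes the median was 0.11.

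**Figure D5:**
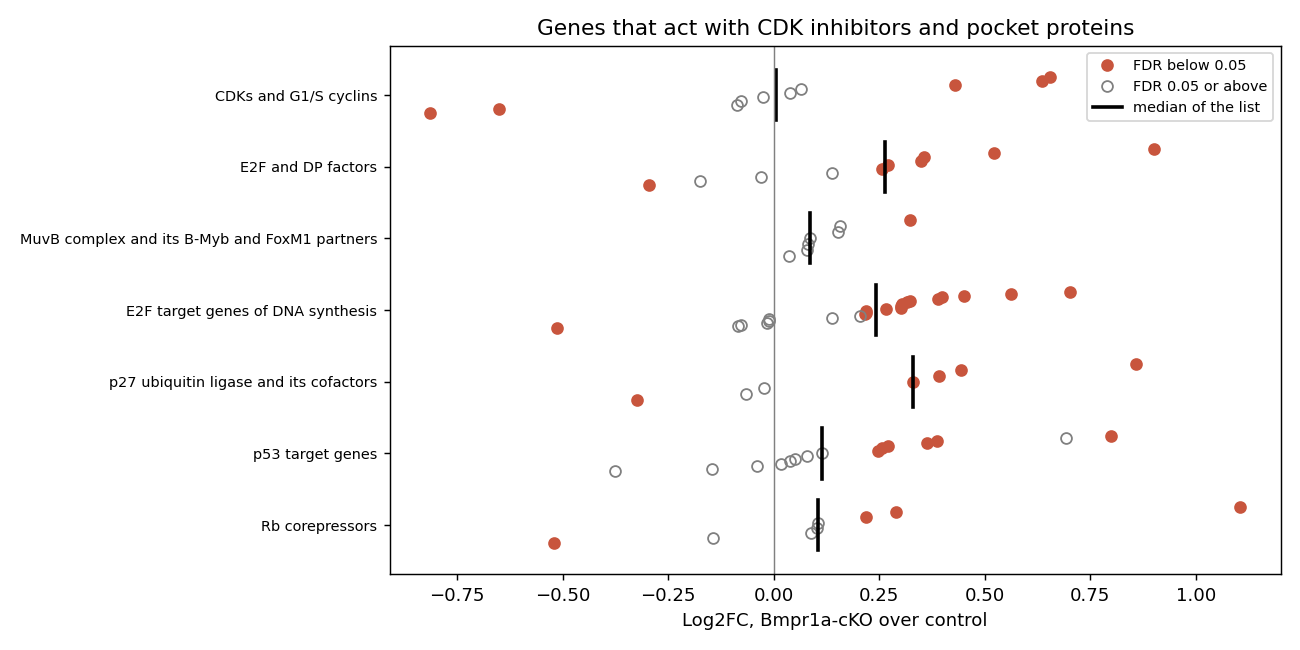
Log2FC (*Bmpr1a*-cKO over control, TMM scaling) of each tested gene in 7 lists of genes that act with CDK inhibitors and pocket proteins, filled red where the FDR was below 0.05 and open where it was not; black bars are list medians. The medians run from 0.0066 for CDKs and G1/S cyclins to 0.33 for the ligase of p27KIP1.

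Cell type markers moved with genotype beside these differences. The summed germ cell markers ran from 519 to 708 CPM in control and from 604 to 946 CPM in *Bmpr1a*-cKO ovaries, where 3 of 6 rose (*Dazl*, *Dnd1* and *Dppa4*) and *Mael* fell. The pregranulosa markers were at 789 to 896 CPM against 616 to 765 CPM, with 5 of 6 lower, and the macrophage markers at 25.8 to 33.4 CPM against 38.9 to 51.9 CPM, with 5 of 6 tested higher. Sertoli cell markers were at 15.5 to 17.2 against 11.5 to 12.6 CPM, with 2 of 5 lower. Steroidogenic cell markers were at 42.2 to 48.4 against 25.0 to 43.6 CPM, with 1 of 4 tested lower. Each sum is of different markers, so the sizes of the sums do not give the proportions of these cell types. No marker of stroma, endothelium or mesonephros passed. Of the erythroid markers, 4 of 7 were at 0 in all libraries and 1 of the 3 tested was lower. The part of these cell types in the differences at *Inca1*, *Rb1* and *Cdkn1b* was not tested.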

How the data were processed

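Counts per gene symbol in 4 control and 4 *Bmpr1a*-cKO libraries, deposited by the authors, were whole numbers without normalization. Per the methods and the labels, reads were strand-specific and paired, trimmed with Trimmomatic 0.39 and mapped and counted with STAR 2.5.2 on mm10. The annotation and strand setting of counting are not given in the sources used here, so exons overlapped by another gene are uncertain. A second table that the authors deposited holds signal (CPM scaled by 1 factor per library) for 14244 genes and was used only as an alternative filter.

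With edgeR 4.0.16 in R 4.3.3, genes were kept by filterByExpr, scaled by TMM (factors 0.972 to 1.03) and tested for genotype by the quasi-likelihood F test, with Benjamini-Hochberg adjustment (FDR) over all 14249 genes. Fold changes are *Bmpr1a*-cKO over control. Log2 CPM of libraries carried a prior count of 2. Alternatives were DESeq2 1.42.0, limma-voom (limma 3.58.1), other scalings and filters, a block for the replicate number, leaving out single libraries, and FDR alone; *Ddx4* scaling was added after the data were seen. Germ cell marker scaling used the mean log2 CPM of the germ cell markers, each weighted alike, and these markers include genes that changed.

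All 10 genes are named. Of each list, up to 4 DEGs with the largest change are named, and for each DEG among the 10 the 3 most similar genes. The genes and lists were chosen with earlier results of these data known, so no test was made over a list. No library was left out, and no pair of replicates was as close as sampling noise. The procedure was tested on simulated data.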

Additional observations from a re-analysis of the deposited data

How the results depend on the processing

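The direction of *Inca1* and its FDR below 0.05 were the same in all 17 alternative fits. *Rb1* kept its direction in all of them, and its FDR below 0.05 in all but germ cell marker and *Ddx4* scaling. *Cdkn1b* also kept its direction in all, and its FDR below 0.05 in all but *Ddx4* scaling. With germ cell marker scaling *Cdkn1b* became a DEG (−0.73). All genes gave 1449 DEGs (871 higher, 578 lower). Germ cell marker scaling gave 4371 (310 and 4061), *Ddx4* scaling 726 (380 and 346) and FDR alone 4242 (2461 and 1781), with 726 genes at an FDR below 0.05 after *Ddx4* scaling. With germ cell marker scaling, 0 of the CDK inhibitor and pocket protein genes were higher and 5 lower, by both criteria, and with *Ddx4* scaling 0 and 1; by FDR alone 2 were lower. Reversed by germ cell marker scaling were *Cdkn1a* (−0.19), *Cdkn2c* (−0.30) and *Rbl1* (−0.20). The lists of CDKs and cyclins, E2F factors, MuvB, E2F targets, the p27KIP1 ligase and p53 targets had 2, 2, 0, 1, 1 and 2 genes at an FDR below 0.05 with germ cell marker scaling, and 2, 1, 0, 0, 1 and 1 with *Ddx4* scaling, under which the Rb corepressors had 1 (2 with library size scaling). Beyond the scale factor itself, which moves every gene of a library alike, the cause was not tested.

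Leaving out 1 library at a time gave 1288 to 1627 DEGs, 0 to 1 MuvB genes, 2 to 5 Rb corepressor genes (2 without control pool 4 or *Bmpr1a*-cKO pool 2, 3 or 4), and 1 to 2 of the 10 genes higher at an FDR below 0.05 (2 without *Bmpr1a*-cKO pool 2, where *Cdkn1a* joined). Whether the replicate numbers pair litters was not given. Correlations of same-numbered pools were 0.20, 0.16, 0.11 and −0.087. Control pools 1 and 2 were most like the *Bmpr1a*-cKO pool of their number, and control pools 3 and 4 were not. With the replicate number as a block, 2 of the genes were higher at an FDR below 0.05, *Cdkn1a* (Log2FC 0.21, FDR = 0.0388) joining *Rb1*, and 2 lower. That fit had 4771 genes at an FDR below 0.05, against 4242 without the block. In it the FDR was 3.00e-06 for *Inca1* and 0.000636 for *Cdkn1b*. Counting depth limits *Cdkn2b* most, with 5 to 12 reads a library.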
